A study of Mus musculus with 6 samples.

Results

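Adipokines are hormones and other signalling proteins that fat tissue secretes, and 10 genes of this system were read in inguinal white adipose tissue (iWAT, the subcutaneous fat pad of the groin) of *Hlx* transgenic mice and wild-type mice. They were chosen by name from the 19445 gene loci of the deposited table, with earlier results of these data known. The 6 ligand genes were *Adipoq*, *Lep*, *Retn*, *Retnla*, *Rarres2* and *Apln*, and the 4 receptor genes were *Lepr*, *Adipor1*, *Adipor2* and *Cdh13*. Each symbol matched 1 locus, and all 10 passed the filter of a mean over 1 FPKM in at least 1 genotype (FPKM, fragments counted on a gene, scaled to its transcript length and to the size of the library).

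The transgenic mice carried a full-length *Hlx* cDNA, which encodes a homeobox transcription factor, under the *aP2* (*Fabp4*) promoter, which is active in adipocytes of both white and brown fat. The controls were wild-type littermates. There were 3 mice per genotype, all 12 weeks old and with no treatment given in the labels, and 1 RNA-Seq library per mouse. The founders were made in C57BL/6 × SJL hybrid embryos and backcrossed to C57BL/6, and the labels give neither the litter of a mouse nor the transgenic line.

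White adipocytes store triglyceride and also report the size of that store to other organs. Leptin (*Lep*) is secreted in proportion to fat mass and acts on the long form of its receptor (*Lepr*) in the hypothalamus to restrain feeding. Adiponectin (*Adipoq*) circulates as multimers of a collagen-like protein, improves insulin sensitivity, and is bound by the membrane receptors *Adipor1* and *Adipor2* and by T-cadherin (*Cdh13*), which holds the large multimers at the cell surface. Resistin (*Retn*) and resistin-like alpha (*Retnla*) are small cysteine-rich secreted proteins of 1 family, and chemerin (*Rarres2*) and apelin (*Apln*) are peptide ligands of G protein-coupled receptors.

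*Hlx* itself was at 110, 79.6 and 99.5 FPKM in transgenic replicates 1, 2 and 3 and at 6.88, 7.35 and 8.14 FPKM in the wild-type replicates, so the libraries matched their genotype labels. Of the 11692 loci tested, 1352, or 11.6%, were higher and 822, or 7.03%, were lower in transgenic iWAT at an adjusted p under 0.05 (limma on log2(FPKM + 1), Benjamini-Hochberg adjustment over all tested loci), and the genotypes did not overlap at 42.9%. With single mice left out, 780 to 1295 loci were called higher and 329 to 906 lower, the latter under 500 without any mouse but transgenic replicate 2. With every library rescaled to the same sum of FPKM, the split was 1083 higher and 1178 lower, and the median log2 fold change of all loci moved from -0.01 to -0.11. Of 17 adipocyte identity genes tested, 14 passed the test in neither direction, 2 rose and 1 fell, and their median log2 fold change was -0.02. Of 10 brown adipocyte markers, 9 rose, among them *Ucp1*, the uncoupling protein of brown fat (log2 fold change 4.12). The labels call the mice male, but *Xist* was between 20.2 and 33.6 FPKM in all 6 libraries and all 28 Y-linked loci were listed at 0 in each of them, with no difference between the genotypes in this respect. The relative depth of the libraries, read from the steps between low FPKM values, ran from 0.69 in transgenic replicate 3 to 1.41 in wild-type replicate 2, with wild-type replicate 3 as 1, and the absolute depth is unknown.

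The adipokine genes did not move as a block. Among the ligands, *Retn*, *Retnla* and *Adipoq* fell and *Apln* rose, while *Lep* and *Rarres2* did not pass the test. Among the receptors, *Adipor1* and *Adipor2* rose, while *Lepr* and *Cdh13* did not pass. Thus 3 of 10 genes were higher and 3 of 10 were lower, set against 11.6% and 7.03% of all tested loci, or 18.6% in either direction. The genotypes did not overlap at 7 of the 10, set against 42.9% of all tested loci. Without wild-type replicate 3 only 1 of the genes was called higher (*Apln*). The median log2 fold change of the 10 genes was -0.37, and that of all tested loci was -0.01.

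**Figure D1:**
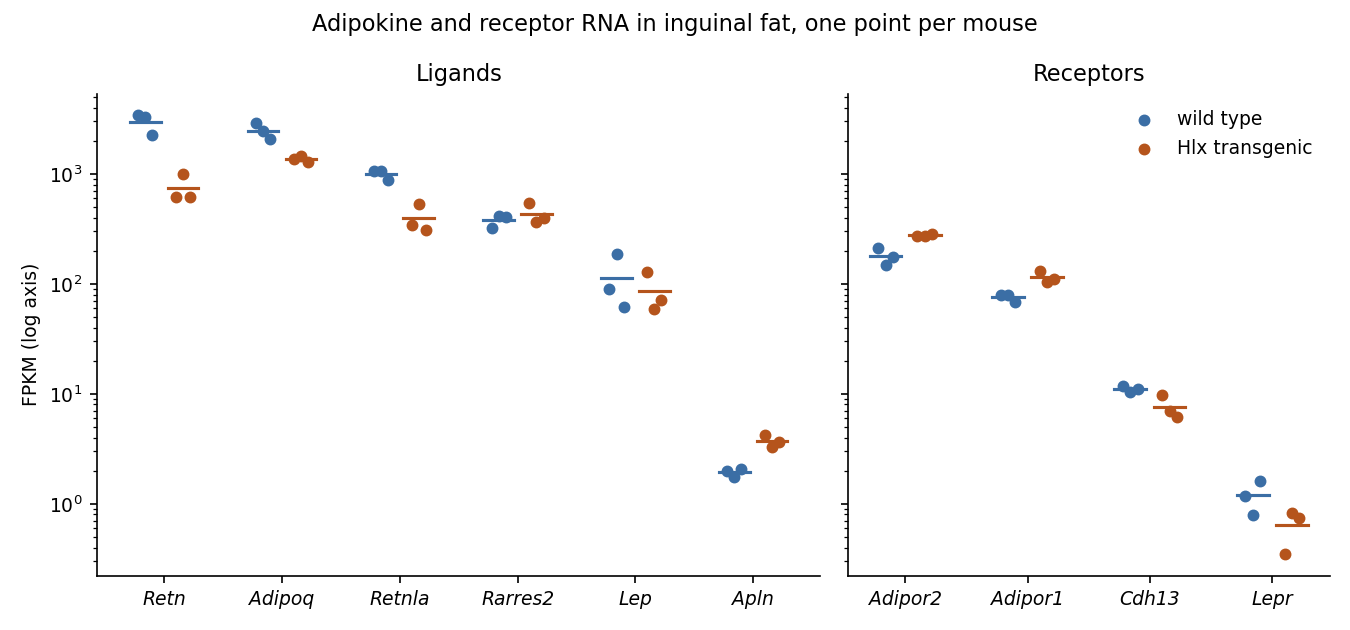
FPKM of the 6 ligand genes and the 4 receptor genes on a log axis, with 1 point per mouse (blue, wild type; orange, *Hlx* transgenic) and a bar at the mean of 3 mice. *Retn*, *Adipoq* and *Retnla* sit lower in every transgenic mouse than in every wild-type mouse, *Apln*, *Adipor1* and *Adipor2* sit higher, and the *Lep*, *Rarres2* and *Lepr* points overlap.

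The levels of the 10 genes spanned more than 3 orders of magnitude of FPKM, from a mean of 1.20 for *Lepr* to 2987 for *Retn* in wild-type iWAT. In wild-type iWAT the order by mean FPKM was *Retn*, *Adipoq*, *Retnla*, *Rarres2*, *Adipor2*, *Lep*, *Adipor1*, *Cdh13*, *Apln* and *Lepr*. The ranges over the 3 mice overlapped between *Retn* and *Adipoq*, between *Adipor2* and *Lep*, and between *Lep* and *Adipor1*, and the other neighbours in this order were separate. In transgenic iWAT *Adipoq*, at a mean of 1363 FPKM, stood above *Retn*, at 747 FPKM, and the ranges of these 2 genes no longer overlapped. *Rarres2* and *Retnla* overlapped there, as did *Adipor1* and *Lep*. The 6 ligands together summed to 7804, 7422 and 5681 FPKM in the wild-type replicates and to 2992, 3429 and 2674 FPKM in the transgenic replicates, a sum set mostly by *Retn*, *Adipoq* and *Retnla*.

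*Retn* showed the largest change of the 10. It lies on mouse chromosome 8 from 3655341 to 3660704 (mm10). Its level was 3403, 3304 and 2254 FPKM in wild-type replicates 1, 2 and 3, and 617, 1008 and 614 FPKM in transgenic replicates 1, 2 and 3. Every transgenic mouse was below every control, and transgenic replicate 2 was the highest of its group. The ratio of wild-type to transgenic means was 4.0, and the change came to -2.02 ± 0.26 on the log2 scale (SE, adjusted p = 0.00346 by limma). The call was kept in all 16 alternative settings, with log2 fold changes from -2.25 to -1.90, and the GENCODE annotation places a processed pseudogene within the deposited locus.

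*Retnla*, on chromosome 16 from 48842552 to 48844461, encodes a protein that in many tissues is also made by macrophages exposed to type 2 cytokines. It had 1072, 1068 and 872 FPKM in the wild-type replicates and 345, 536 and 310 FPKM in the transgenic replicates. The groups did not overlap, and transgenic replicate 2 was again the highest of the transgenic mice. The change came to -1.37 ± 0.22 on the log2 scale (SE, adjusted p = 0.00772 by limma), and the ratio of wild-type to transgenic means was 2.53. The call was lost only with no filter on low values (adjusted p = 0.0517, limma).

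Macrophage markers tended to be lower in transgenic iWAT. Of 10 such markers tested, 6 fell and 0 rose, beside 7.03% lower and 11.6% higher of all tested loci, with a median log2 fold change of -0.59. *Lyz2*, lysozyme of myeloid cells, was lower with a log2 fold change of -1.10 (limma adjusted p = 0.00823), and *Cd68*, a lysosomal protein of macrophages, with one of -0.86 (adjusted p = 0.004). The summed level of the marker list was 953, 900 and 1150 FPKM in the wild-type replicates and 440, 636 and 483 FPKM in the transgenic replicates, with the highest transgenic value in replicate 2. The summed lymphocyte and fibroblast markers were also highest in replicate 2 among the transgenic mice. Among the controls, the macrophage sum was highest in replicate 3, where *Retn* and *Retnla* were lowest. Of 9 tested markers of alternatively activated macrophages, 4 fell and 0 rose. These were *Ccl24*, *Cd209a*, *Clec10a* and *Cd163*, with log2 fold changes of -1.11, -0.82, -0.74 and -0.55. Both macrophage lists hold *Cd163* and also *Mrc1*, which did not pass (-0.46). The 3 other markers of alternatively activated macrophages were under the filter. *Arg1* was at a mean of 0.8 FPKM in the controls and 0.794 FPKM in the transgenic mice, *Pdcd1lg2* at 0.635 and 0.353 FPKM, and *Chi3l3* at 0.214 and 0.751 FPKM with no overlap. The 5 eosinophil markers were all under the filter and summed to between 0.568 and 2.28 FPKM. The part of macrophage RNA in the fall of *Retnla* was not tested, and in whole tissue fewer cells of a type and less RNA per cell cannot be told apart.

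*Adipoq*, on chromosome 16 from 23146355 to 23160703, is among the most abundant transcripts of adipocytes. It had 2911, 2447 and 2084 FPKM in the wild-type replicates and 1354, 1457 and 1279 FPKM in the transgenic replicates. The transgenic mice were close to each other, with a coefficient of variation of 6.53%, and all of them were under the lowest control. On the log2 scale the fall was -0.85 ± 0.17 (SE, 95% interval -1.26 to -0.45, adjusted p = 0.0172 by limma), and the ratio of wild-type to transgenic means was 1.82. The call was lost without transgenic replicate 3 (adjusted p = 0.0688), without wild-type replicate 2 (0.056) and with no filter on low values (0.205), and the adjusted p over all alternatives ran from 0.00411 to 0.205. Among the adipocyte identity genes in the same libraries, *Lpl*, lipoprotein lipase, fell (log2 fold change -0.67, adjusted p = 0.0209, limma). *Gpd1*, the glycerol-3-phosphate dehydrogenase of glyceride synthesis, and *Aqp7*, the glycerol channel, rose (1.46 and 0.65, adjusted p = 0.00176 and 0.0249, limma), and the 17 genes ranged from -0.67 to 1.46.

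*Lep*, on chromosome 6 from 29060221 to 29073878, was the most variable of the ligands. It had 90.6, 188 and 61.1 FPKM in the wild-type replicates and 128, 58.6 and 71.0 FPKM in the transgenic replicates. The groups overlapped, with the highest and the second-lowest values both in wild-type mice, and the coefficient of variation was 58.7% in wild-type and 43.3% in transgenic iWAT. For *Lep* the log2 fold change was -0.32 (limma adjusted p = 0.636), with a 95% interval from -1.36 to 0.73, so differences within it were not detectable at the spread of *Lep* in these mice. Without wild-type replicate 2, which had the highest value, the log2 fold change was 0.12 (adjusted p = 0.84).

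*Rarres2*, the chemerin gene on chromosome 6 from 48554799 to 48572854, had 325.0, 413.0 and 407.7 FPKM in the wild-type replicates and 542.4, 366.4 and 395.9 FPKM in the transgenic replicates. The groups overlapped, and only transgenic replicate 1 lay above all controls. The difference was 0.17 on the log2 scale (95% interval -0.25 to 0.60, limma adjusted p = 0.514), and with quantile normalization it was -0.19. The deposited locus is the same interval as that of *Lrrc61*, which was between 7.29 and 9.43 FPKM in the 6 libraries. Reads of a pair of overlapping genes cannot be told apart where their exons coincide, because the library kit did not mark strand.

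*Apln*, on chromosome X from 48025146 to 48034852, encodes apelin, a peptide made by endothelial cells as well as by adipocytes. It was a low transcript with 2.00, 1.77 and 2.05 FPKM in the wild-type replicates and 4.21, 3.29 and 3.61 FPKM in the transgenic replicates. Every transgenic value was above every control. The rise was 0.67 ± 0.11 on the log2(FPKM + 1) scale (SE, adjusted p = 0.00831 by limma), a scale that understates the change of low genes, and the ratio of means was 1.91. The call was kept in all 16 alternatives. Of 14 endothelial markers tested, 2 rose (*Kdr* and *Emcn*, log2 fold changes 0.35 and 0.50), 1 fell (*Cldn5*, -0.76) and 11 did not pass. These are 14.3% higher and 7.14% lower, near the 11.6% and 7.03% of all tested loci. The summed level of these markers was between 229 and 242 FPKM in the controls and between 234 and 262 FPKM in the transgenic mice.

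**Figure D2:**
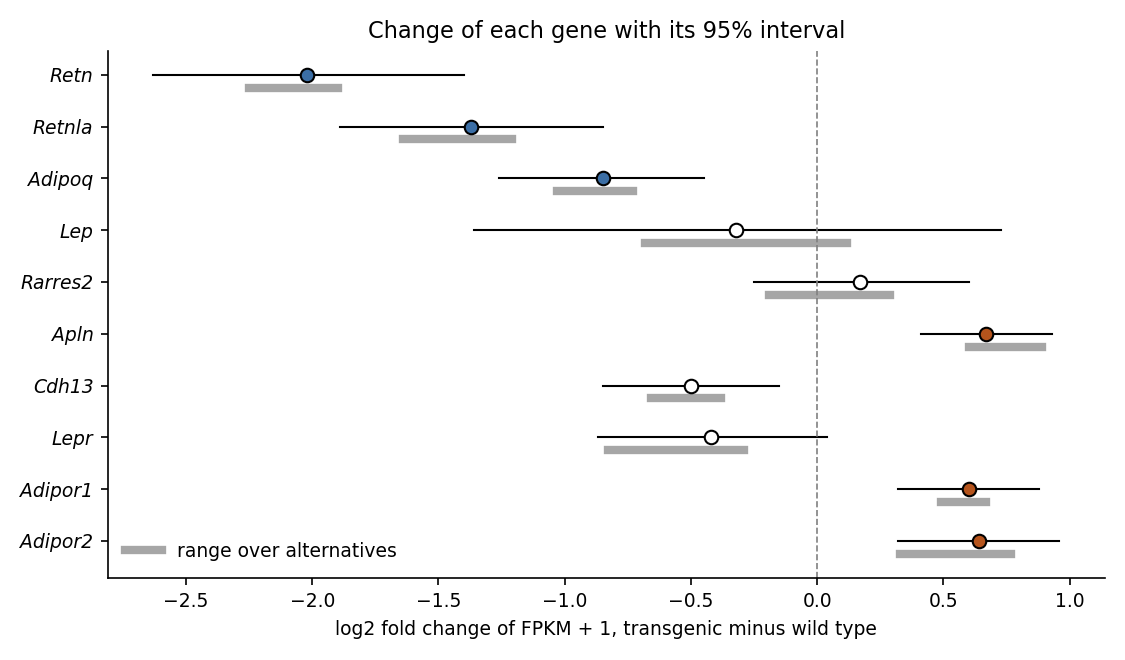
Log2 fold change of FPKM + 1 (x axis, transgenic minus wild type) for each gene, with its 95% interval as a thin line (limma, 3 mice per genotype) and, below it, the range over up to 16 alternative settings in grey. Filled points passed an adjusted p under 0.05 (blue, lower; orange, higher), and the grey bars of *Lep* and *Rarres2* cross 0.

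The bases just before the start sites of the ligands are shown to set the genes that fell beside *Lep*, which did not pass the test. Each line gives the 250 bases that end just before the RefSeq start site (GRCm38.p6, the mm10 assembly), 5′ to 3′ on the strand of the gene, which is the plus strand for these 4. The RefSeq starts of *Retn*, *Adipoq* and *Retnla* lie downstream of the first base of their deposited loci, and that of *Lep* is at it. Capitals mark matches to any of 5 motifs searched on both strands, TAATTA (a homeodomain core), TATAAA (the box bound by the TATA-binding protein), TTGCNNAA (a loose C/EBP-type pattern), AGGTCA (a nuclear receptor half-site) and GGGCGG (bound by Sp family factors).
Retn, chr8:3655520-3655769: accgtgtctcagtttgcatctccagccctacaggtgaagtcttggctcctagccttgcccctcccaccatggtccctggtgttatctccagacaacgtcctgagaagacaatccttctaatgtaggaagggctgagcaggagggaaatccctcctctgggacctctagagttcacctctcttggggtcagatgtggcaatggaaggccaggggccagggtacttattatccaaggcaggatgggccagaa
Retnla, chr16:48842359-48842608: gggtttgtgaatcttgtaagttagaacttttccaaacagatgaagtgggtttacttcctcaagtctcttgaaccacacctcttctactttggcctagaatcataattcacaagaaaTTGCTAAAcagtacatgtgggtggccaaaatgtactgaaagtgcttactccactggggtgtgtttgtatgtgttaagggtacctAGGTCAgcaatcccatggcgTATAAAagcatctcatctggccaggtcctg
Adipoq, chr16:23146286-23146535: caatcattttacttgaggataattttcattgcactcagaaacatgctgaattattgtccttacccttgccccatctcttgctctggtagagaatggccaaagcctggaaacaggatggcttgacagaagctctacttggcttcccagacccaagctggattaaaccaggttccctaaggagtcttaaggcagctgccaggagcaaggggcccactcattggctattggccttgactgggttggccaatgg
Lep, chr6:29059971-29060220: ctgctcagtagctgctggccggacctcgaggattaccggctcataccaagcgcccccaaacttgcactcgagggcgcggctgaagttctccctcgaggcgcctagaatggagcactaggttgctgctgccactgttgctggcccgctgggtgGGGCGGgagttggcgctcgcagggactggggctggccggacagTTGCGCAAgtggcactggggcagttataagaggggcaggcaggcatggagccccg

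The 3 genes that fell did not share a motif of this search. The *Retn* and *Adipoq* windows held none of the 5 motifs. The *Retnla* window held a TATAAA at -30, an AGGTCA at -50 and a TTGCNNAA match at -134, counted from the start site to the first base of the match. The *Lep* window held a TTGCNNAA match at -55 and a GGGCGG at -98. Its GC content was 65.6%, against 54.8% for *Retn*, 48.8% for *Adipoq* and 42.8% for *Retnla*. The window of *Apln*, which rose, had 65.2%, and the median of all 32851 promoters of the table was 52.4%. Of all promoters of the same length, 4.84% held TAATTA, 12.4% TATAAA, 9.56% TTGCNNAA, 14% AGGTCA and 32.7% GGGCGG. RefSeq windows were matched for 8 of the 10 genes, and TAATTA was in none of the 10 windows of these 8 genes. The paper that reported these data searched with a longer Hlx-binding motif and over longer promoter regions. Its search was made only within published binding peaks of the coactivator Prdm16. The absence of TAATTA here therefore does not tell whether Hlx binds near these genes. Among the genes that rose, *Apln* held 1 GGGCGG, each of the 2 *Adipor1* windows held 2, and *Adipor2* held none of the 5 motifs, in a window whose RefSeq start lies inside the deposited locus.

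Both adiponectin receptors rose. *Adipor1*, on chromosome 1 from 134415434 to 134433327, encodes a multipass membrane protein whose activation by adiponectin is linked to AMP-activated protein kinase. It had 78.9, 79.9 and 68.1 FPKM in the wild-type replicates and 132, 104 and 110 FPKM in the transgenic replicates, with no overlap. The rise was 0.60 ± 0.12 on the log2 scale (SE, adjusted p = 0.0165 by limma), and the ratio of means was 1.52. The call was lost without wild-type replicate 3 (adjusted p = 0.0575) and with no filter (0.0603).

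*Adipor2*, on chromosome 6 from 119353150 to 119417483, encodes the related receptor that is linked to peroxisome proliferator-activated receptor alpha. It had 211, 149 and 177 FPKM in the wild-type replicates and 275, 274 and 282 FPKM in the transgenic replicates. The transgenic mice differed little, with a coefficient of variation of 1.53%, and all were above the highest control. The change came to 0.64 ± 0.13 on the log2 scale (SE, adjusted p = 0.0196 by limma). The call was lost in 6 of 16 alternatives, namely without transgenic replicate 1 (adjusted p = 0.0508), transgenic replicate 3 (0.0684), wild-type replicate 2 (0.0505) or wild-type replicate 3 (0.0646), with no filter (0.0682) and with quantile normalization (0.0871), and it stayed positive in each of them.

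*Cdh13* encodes T-cadherin, a cadherin with a lipid anchor in place of a transmembrane segment, found on endothelial and muscle cells. It lies on chromosome 8 from 118283561 to 119324902. It had 11.7, 10.3 and 11.1 FPKM in the wild-type replicates and 9.71, 7.04 and 6.21 FPKM in the transgenic replicates. The groups did not overlap, but the adjusted p was 0.0593 (limma, log2 fold change -0.50, 95% interval -0.85 to -0.15). Under 4 of 16 alternatives the adjusted p was under 0.05, with the lowest value, 0.0111, without transgenic replicate 1, which was the transgenic mouse with the highest level.

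*Lepr*, on chromosome 4 from 101717407 to 101880660, was near the lower limit of what was tested. It had 1.18, 0.788 and 1.62 FPKM in the wild-type replicates and 0.351, 0.816 and 0.745 FPKM in the transgenic replicates, and it passed the filter only through its wild-type mean. The groups overlapped because wild-type replicate 2 lay below transgenic replicate 2. The log2 fold change was -0.42 (95% interval -0.87 to 0.04, limma adjusted p = 0.165) with a pseudocount of 1 and -0.83 with one of 0.1 (adjusted p = 0.177), and the ratio of wild-type to transgenic means was 1.88. The deposited locus also spans the annotated gene *B020004J07Rik*. The value sums all forms of the receptor, so the long signalling form and the short forms were not read apart. *Leprot*, a neighbouring gene for an endosomal protein that limits leptin receptor at the cell surface, had 23.2, 25.2 and 26.4 FPKM in the wild-type replicates and 22.5, 24.3 and 20.1 FPKM in the transgenic replicates (log2 fold change -0.16, adjusted p = 0.274, limma).

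Ratios of 2 genes within the same mouse do not depend on how a library was scaled, and 5 were compared. The *Retn* to *Adipoq* ratio of FPKM was 1.17, 1.35 and 1.08 in the wild-type replicates and 0.456, 0.692 and 0.48 in the transgenic replicates. Resistin RNA was thus above adiponectin RNA in each control and below it in each transgenic mouse, a difference of -1.16 on the log2 scale. The *Retn* to *Retnla* ratio was 3.17, 3.09 and 2.59 in the wild-type replicates and 1.79, 1.88 and 1.98 in the transgenic replicates, a difference of -0.64 on the log2 scale. Neither pair overlapped between the genotypes. For each the exact two-sided permutation test gave p = 0.1, the smallest that 3 mice against 3 allow, or 0.25 adjusted over the 5 ratios, so that no ratio in this design could pass a threshold of 0.05.

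The other 3 ratios overlapped between the genotypes. The *Lep* to *Adipoq* ratio ran from 0.0293 to 0.077 in wild-type and from 0.0402 to 0.0949 in transgenic iWAT (exact permutation test, p = 0.5, adjusted p = 0.625). The *Adipor1* to *Adipor2* ratio was 0.375, 0.536 and 0.385 in the wild-type replicates and 0.48, 0.379 and 0.389 in the transgenic replicates, a mean log2 difference of -0.04 (exact permutation test, p = 0.9, adjusted p = 0.9). The log2 difference of this ratio was -0.15 to 0.12 when single mice were left out. The *Lepr* to *Leprot* ratio ran from 0.0313 to 0.0614 in wild-type and from 0.0156 to 0.037 in transgenic iWAT (exact permutation test, p = 0.3, adjusted p = 0.5).

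**Figure D3:**
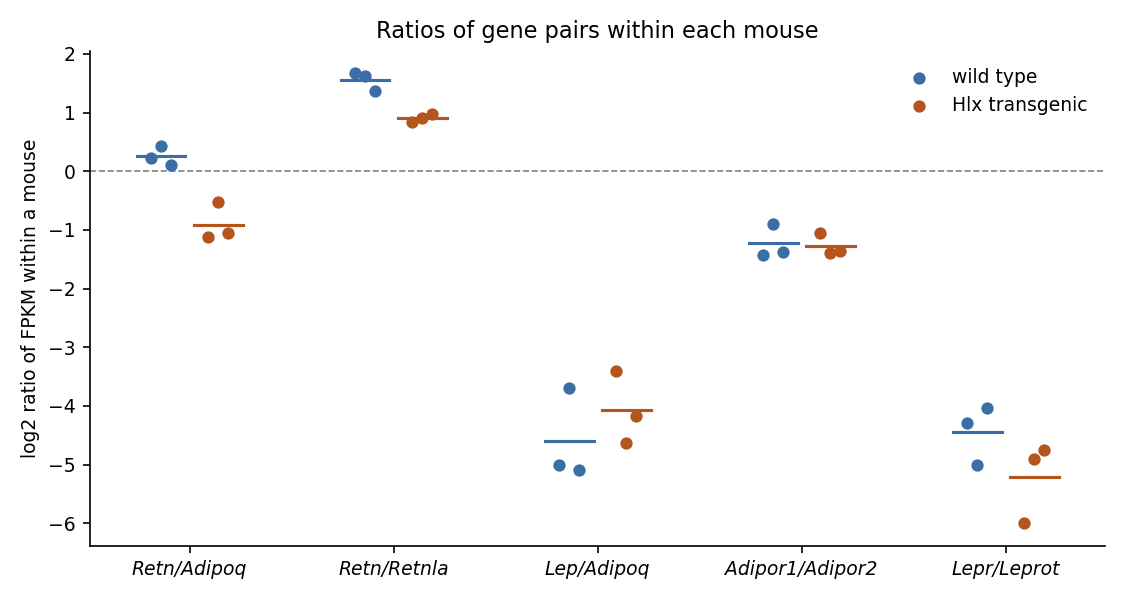
Log2 ratio of FPKM of gene pairs within each mouse (y axis), with 1 point per mouse and a bar at the mean of 3 mice (blue, wild type; orange, *Hlx* transgenic). The *Retn*/*Adipoq* points lie above 0 in the 3 wild-type mice and below 0 in the 3 transgenic mice, and the *Adipor1*/*Adipor2* points of the genotypes overlap.

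Receptors of the other ligands were read from a list of 10 adipokine-binding proteins, of which 1 fell and 9 did not pass. That is 10% lower and 0% higher, beside 7.03% and 11.6% of all tested loci. The one that fell was *Cmklr1*, the signalling receptor of chemerin. It had 90.9, 83.8 and 77.6 FPKM in the wild-type replicates and 48.2, 41.6 and 45.0 FPKM in the transgenic replicates, which is a change of -0.89 ± 0.09 on the log2 scale (SE, adjusted p = 0.00181 by limma). The other chemerin-binding receptors, *Gpr1* and *Ccrl2*, were at or below 1.72 FPKM in every mouse, with log2 fold changes of -0.29 and 0.08 (adjusted p = 0.175 and 0.72, limma). *Aplnr*, the apelin receptor, had 6.03, 6.01 and 4.64 FPKM in the wild-type replicates and 5.75, 3.37 and 3.90 FPKM in the transgenic replicates (log2 fold change -0.31, adjusted p = 0.246, limma). The median log2 fold change of the list was -0.15.

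Of 20 genes that act below the adiponectin receptors, 9 rose, 2 fell and 9 did not pass. These are 45% higher and 10% lower, beside 11.6% and 7.03% of all tested loci, and their median log2 fold change was 0.27, beside -0.01 for all tested loci. The largest rise was that of *Ppara*, the fatty acid-sensing nuclear receptor, with 6.17, 2.54 and 4.85 FPKM in the wild-type replicates and 27.1, 27.8 and 43.0 FPKM in the transgenic replicates (log2 fold change 2.63, limma adjusted p = 0.00192). In cultured brown adipocytes, the paper that reported these data found Hlx at the *Ppara* promoter and lower *Ppara* after *Hlx* knockdown. Another of the 9, the coactivator gene *Ppargc1a* (0.51, adjusted p = 0.0122, limma), is also on the list of brown adipocyte markers. *Acacb*, the acetyl-CoA carboxylase that makes malonyl-CoA at mitochondria, rose by 1.45 on the log2 scale (limma, adjusted p = 0.00427). Among subunits of AMP-activated protein kinase, *Prkag2*, *Prkab1*, *Prkaa2*, *Prkab2* and *Prkag1* rose, with log2 fold changes of 0.83, 0.61, 0.47, 0.38 and 0.30 (adjusted p from 0.0125 to 0.0469). The catalytic subunit gene *Prkaa1* fell from a mean of 15.4 to 8.81 FPKM (log2 fold change -0.74, adjusted p = 0.00225). *Asah1*, an acid ceramidase, also fell (-0.45, adjusted p = 0.0215), and *Appl1*, an adaptor that binds the adiponectin receptors, was at 0.01 on the same scale (limma, adjusted p = 0.948).

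Of 17 genes of leptin receptor signalling, 3 fell, 1 rose and 13 did not pass, which is 17.6% lower and 5.88% higher beside 7.03% and 11.6% of all tested loci. The median log2 fold change was -0.15. The genes that fell were *Irs2*, *Irs1* and *Pik3r1* (log2 fold changes -0.93, -0.86 and -0.66, limma adjusted p = 0.0176, 0.0275 and 0.00577), which are also components of insulin signalling. The gene that rose was *Sh2b1*, an adaptor of the kinase JAK2 (0.32, adjusted p = 0.0313). *Jak2*, *Stat3* and *Socs3*, the kinase, transcription factor and feedback inhibitor of the pathway, had log2 fold changes of -0.13, -0.15 and -0.20 (adjusted p = 0.399, 0.328 and 0.492, limma).

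Of 14 tested genes for the assembly of adiponectin multimers and secretory folding, 1 rose, 2 fell and 11 did not pass (7.14% higher and 14.3% lower, beside 11.6% and 7.03% of all tested loci), with a median of 0.02. *Erp44* and *Ero1l* encode the chaperone that retains adiponectin in the endoplasmic reticulum and the oxidase that releases it. They had log2 fold changes of 0.03 (adjusted p = 0.82) and 0.42 (adjusted p = 0.0407, limma). *Plod2*, a lysyl hydroxylase of collagens, and *P4hb*, protein disulfide isomerase, fell (-0.86 and -0.41, adjusted p = 0.0306 and 0.0192, limma).

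Of 23 tested genes for other factors that adipocytes secrete, 5 fell, 2 rose and 16 did not pass. These are 21.7% lower and 8.7% higher, beside 7.03% and 11.6% of all tested loci, and the median log2 fold change was -0.21. The 4 largest falls were those of *Agt* (angiotensinogen), *Cfd* (adipsin), *Rbp4* (retinol-binding protein) and *Gpx3* (secreted glutathione peroxidase), with log2 fold changes of -3.27, -1.91, -1.79 and -1.10 (limma adjusted p = 0.000904, 0.02, 0.0051 and 0.021). The deposited *Cfd* locus, on chromosome 10 from 79697305 to 80369637, is far longer than the gene itself. *Agt* was at 32.9, 17.1 and 17.1 FPKM in the wild-type replicates and at 0.801, 1.32 and 1.95 FPKM in the transgenic replicates. The 2 that rose were *Nrg4*, an epidermal growth factor-type ligand made by brown fat, and *Nampt*, an enzyme of NAD synthesis that is also secreted (0.56 and 0.55, adjusted p = 0.0151 and 0.0386, limma). Of the other 6 listed factors with a locus of their own, each was under the filter, among them *Fgf21* with a mean of 0.376 FPKM in the transgenic mice and 0.337 FPKM in the controls.

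**Figure D4:**
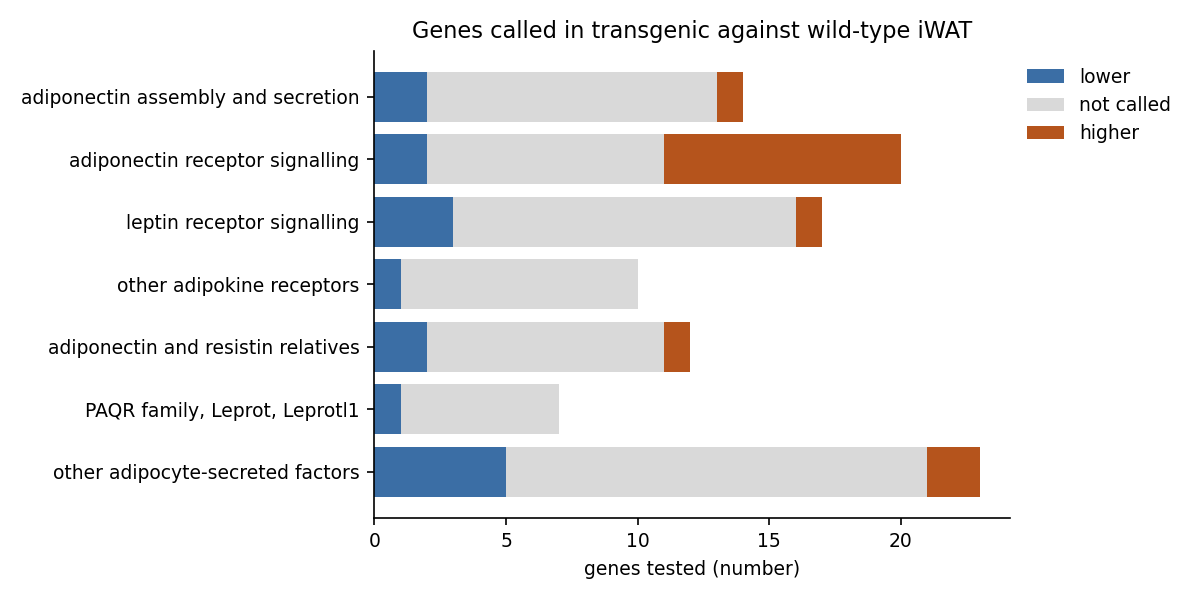
Number of genes tested in each list around the adipokines (x axis), split into those called lower (blue), not called (grey) and called higher (orange) in transgenic iWAT at an adjusted p under 0.05 (limma). The list of adiponectin receptor signalling holds 9 of 20 genes called higher, and in every other list most genes were not called.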

How the data were processed

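Total RNA of iWAT from 6 mice was sequenced as TruSeq libraries with single-end reads of 100 bases. Per the labels, the submitters' processing notes name CASAVA 1.8.2, TopHat2 2.0.9, Bowtie2 2.1.0, Cufflinks 2.2.1 and mm10, and the authors deposited 1 FPKM value per locus and library. The annotation and options are not given in the sources used here. FPKM is not a count, so no count test was run, and the depth is unknown in absolute terms.

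Loci were kept where either genotype averaged more than 1 FPKM, which left 11692, and their log2(FPKM + 1) values were compared in limma 3.58.1 under R 4.3.3. The model held genotype alone, with a mean-variance trend in eBayes, two-sided p-values and Benjamini-Hochberg adjustment across the kept loci. In a test on simulated data made for this comparison, on the 11478 genes with a mean over 1 FPKM across all mice, 83% of 100 genes changed 2-fold and 89% of 100 changed 3-fold were recovered, and 6.52% of the called genes were unchanged. No other gene was changed in the simulation, so far fewer changed there than were called in the data. Changes under 2-fold were not simulated, so these shares need not hold for the genes reported here. Ratios of 2 genes were compared with an exact permutation test over 20 arrangements of the mice. Python 3.11.15 and matplotlib 3.10.9 were used for the rest. Where a listed symbol had several loci, the one with the highest average was taken, and the 433 loci that carry several symbols were not used for the lists. Locus starts were written as counted from 1.

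The 10 genes and the gene lists were chosen with earlier results of these data known, and lists are described by counts and medians only. Text names all 10 genes and, per list, up to 4 called genes in each direction with the largest changes, plus *Hlx*, the receptors of the ligands, *Leprot*, and for *Adipoq*, *Lep* and *Retn* the 3 loci of closest profile (those of *Lep* are not reported here). Other genes named (*Arg1*, *Chi3l3*, *Pdcd1lg2*, *Mrc1*, *Appl1*, *Jak2*, *Stat3*, *Socs3*, *Erp44*, *Fgf21*, *Retnlg*, *Retnlb*, *Lrrc61*, *Ppargc1a*, *Prkag1*, *Prkab2* and *Prkaa2*) were chosen after their values were seen. Promoter windows are from RefSeq (GRCm38.p6). In the GENCODE transcripts, windows of 100 bases shared with another gene were 0.667% of those of *Lepr* (with *Gm12797*) and 0% for the other 9 genes. Transcripts were compared in their own orientation only, so overlap with genes on the opposite strand was not read. Alternatives were another pseudocount (0.1), other filters, scalings and weights, a replicate block, stricter calls and each mouse left out.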

Additional observations from a re-analysis of the deposited data

How the results depend on the processing

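Each of the 10 genes was refitted under up to 16 alternatives, of which rescaling to the adipocyte identity genes was added after the data were seen. Of the called genes, *Retn* and *Apln* kept their calls in all 16, *Retnla* in 15, *Adipor1* in 14, *Adipoq* in 13 and *Adipor2* in 10. The direction turned only for *Lep* (from -0.68 to 0.12 when single mice were left out, the latter without wild-type replicate 2), for *Rarres2* (-0.19 with quantile normalization) and for the *Adipor1* to *Adipor2* ratio (from -0.15 to 0.12 when single mice were left out). The cause was not tested. With single mice left out, 1 to 3 of the 10 genes were called higher and 2 to 4 lower, loci called higher ranged from 780 to 1295 and loci called lower from 329 to 906. The lowest counts came without wild-type replicate 3 for the higher loci, and without transgenic replicate 3 for the lower ones. With no filter, 1 gene was called higher and 1 lower, beside 748 and 381 loci. At an adjusted p under 0.01, 1 gene was called higher and 2 lower, beside 569 loci higher and 199 lower. At an adjusted p under 0.05 together with a 2-fold ratio of means, 0 genes were called higher and 2 lower, beside 413 and 204 loci. The 2 genes called lower under both stricter rules were *Retn* and *Retnla*. The 3 genes that rose had ratios of means from 1.52 to 1.91. With rescaling to the adipocyte identity genes, 536 loci were called lower. The replicate numbers number different mice, and deviations of same-numbered mice from their group means correlated at 0.0129, 0.0344 and 0.0701. Deviations from a mean of 3 mice cancel within each group. These values therefore cannot tell whether same-numbered mice were paired, for example by litter, which the labels do not give. With the replicate block, 1230 loci were called higher and 656 lower. Low FPKM values, such as those of *Lepr*, are the least precise in the shallower libraries, transgenic replicates 1 and 3.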

Other observations

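The paralogs of the adipokines were mostly low or did not pass the test. Of 12 tested relatives of adiponectin and resistin, 1 was called higher, 2 fell and 9 did not pass, with a median log2 fold change of -0.16. These are 8.33% higher and 16.7% lower, beside 11.6% and 7.03% of all tested loci. *C1qtnf7* and *C1qtnf1*, which encode secreted proteins with the C1q-like domain of adiponectin, fell (log2 fold changes -0.76 and -0.68, limma adjusted p = 0.012 and 0.0448), and *C1qtnf3* went from a mean of 0.462 to 1.45 FPKM (0.74, adjusted p = 0.0443), a gene that passed the filter only through its transgenic mean and so is not counted as support. *Retnlg*, a resistin-like gene of myeloid cells, had a mean of 0.771 FPKM in the controls and 2.13 FPKM in the transgenic mice (adjusted p = 0.0997), and *Retnlb* was listed at 0 in all 6 libraries. Of 7 tested genes among the PAQR family, to which the adiponectin receptors belong, and the leptin receptor neighbours *Leprot* and *Leprotl1*, 1 fell, *Paqr4* (-0.88, adjusted p = 0.00292, limma), and 0 rose. That is 14.3% lower and 0% higher, beside the same shares of all tested loci.

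Markers of other cells that fat can hold were also read. Of 12 fibroblast and progenitor markers 0 were called, of 12 epithelial markers 0 and of 9 skeletal muscle markers 0 (limma, adjusted p under 0.05). Their median log2 fold changes were -0.14, -0.41 and 2.18. The mean was higher in the transgenic mice for 9 of 9 muscle markers, and lower for 12 of 12 epithelial, 10 of 12 fibroblast and 10 of 10 lymphocyte markers (median -0.44 for the last). Of 10 lymphocyte markers 1 was lower (*Ms4a1*, log2 fold change -0.76, adjusted p = 0.0361, limma), which is 10%, beside 7.03% of all tested loci. The summed skeletal muscle markers reached 717 FPKM in transgenic replicate 2 and lay between 7.42 and 149 FPKM in the other 5 libraries. The summed epithelial markers lay between 182 and 439 FPKM.

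The loci whose profile over the 6 mice was closest to that of a hormone gene, by the root-mean-square difference of centred log2(FPKM + 1), were *Cldn5*, *Ggt5* and *Cdo1* for *Adipoq* (0.0659, 0.0663 and 0.0794, beside a median of 0.468 over all tested loci). For *Retn* they were *Smoc1*, *Baiap2l2* and *Chrdl1* (0.144, 0.232 and 0.246, median 1.06). The profiles include the difference between the genotypes, so genes that fell by a like amount are close by construction.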
